A study of Mus musculus with 9 samples.

Results

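The ILC2 and Th2 identity genes were 10 genes that group 2 innate lymphoid cells (ILC2s) and type 2 helper T cells (Th2 cells) share as markers: *Gata3*, *Rora*, *Bcl11b*, *Klrg1*, *Icos*, *Il7r*, *Il2ra*, *Ptgdr2*, *Il17rb* and *Il9r*. They were chosen by symbol from the deposited table of lung RNA-seq, which holds 34638 genes, and all 10 were found, each on 1 row. The table covers 9 wild-type (WT) C57BL/6 mice, 3 in each of 3 groups. PBS mice received phosphate buffered saline, and IL-33 mice received 0.5 µg of recombinant mouse IL-33 (rmIL-33) into the trachea on each of days 0 to 3. IL-33+LM8 mice received the same challenge and, before it, an injection of LM8 into the peritoneum at 10 mg/kg. LM8 is described by the submitters as an inhibitor of MyD88. PBS and IL-33 mice were females aged 6 to 8 weeks whose lungs were taken on day 4, as far as the study's methods state, while sex, age and day of sampling of the IL-33+LM8 mice are not given in the sources used here. No transgene or deletion was carried by any group, and no group received LM8 without IL-33.

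ILC2s and Th2 cells are lymphocytes of type 2 immunity, known in the lung for making IL-5 and IL-13, which drive eosinophil accumulation and mucus production. ILC2s lack an antigen receptor and respond to alarmins of the epithelium, namely IL-33, IL-25 and TSLP, whereas Th2 cells develop from naive CD4+ T cells. Both depend on GATA3, and both carry overlapping sets of cytokine receptors. IL-33 binds ST2, encoded by *Il1rl1*, and the signal passes through the adaptor MyD88. None of the 10 genes is restricted to these cells: *Il7r*, *Bcl11b* and *Icos* are known in other T cells, *Il2ra*, *Icos*, *Klrg1* and *Gata3* also in regulatory T cells, *Klrg1* in NK cells, and *Rora* in many tissues.

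Between 53877663 and 90607218 reads per mouse were counted on genes. No 2 libraries of a group were copies, since the smallest chi-square per degree of freedom between them was 24.1. The labelled tissue was checked on lung markers: *Sftpc*, the surfactant protein of alveolar type 2 cells, stood at a mean of 11030 FPKM in PBS mice, and *Scgb1a1*, a secretory protein of club cells, at 21500 FPKM. FPKM expresses reads per length of gene and size of library, and fits were made on the counts. The libraries are of whole lung, so that fewer cells of a type and less RNA per cell cannot be told apart in any value below.

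To show the DNA in front of the members on which the results turn, the 250 bases before the RefSeq start are given 5′ to 3′ on the gene's strand in GRCm38.p6 for *Il17rb* (largest log2 fold change with IL-33), *Il2ra* (smallest change of a risen member with LM8) and *Il9r* and *Il7r* (motif matches). They lie at chr14:30008897-30009146 (minus strand), chr2:11642542-11642791 (plus strand), chr11:32200280-32200529 (minus strand) and chr15:9529877-9530126 (minus strand). Capitals mark matches to the motifs searched.
Il17rb: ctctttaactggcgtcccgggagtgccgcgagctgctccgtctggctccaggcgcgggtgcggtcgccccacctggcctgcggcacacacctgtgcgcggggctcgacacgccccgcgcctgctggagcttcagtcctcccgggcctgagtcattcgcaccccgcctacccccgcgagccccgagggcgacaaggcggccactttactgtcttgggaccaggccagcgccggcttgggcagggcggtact
Il2ra: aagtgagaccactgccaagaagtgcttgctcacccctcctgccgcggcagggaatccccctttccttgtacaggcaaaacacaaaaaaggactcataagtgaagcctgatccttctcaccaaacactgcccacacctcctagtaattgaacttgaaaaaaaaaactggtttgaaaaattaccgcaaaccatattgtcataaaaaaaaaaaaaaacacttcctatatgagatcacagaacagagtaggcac
Il9r: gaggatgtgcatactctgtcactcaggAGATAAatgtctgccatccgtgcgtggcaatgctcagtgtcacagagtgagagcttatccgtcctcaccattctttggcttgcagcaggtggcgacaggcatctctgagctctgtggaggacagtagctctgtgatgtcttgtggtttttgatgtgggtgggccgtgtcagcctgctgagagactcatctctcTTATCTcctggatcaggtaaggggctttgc
Il7r: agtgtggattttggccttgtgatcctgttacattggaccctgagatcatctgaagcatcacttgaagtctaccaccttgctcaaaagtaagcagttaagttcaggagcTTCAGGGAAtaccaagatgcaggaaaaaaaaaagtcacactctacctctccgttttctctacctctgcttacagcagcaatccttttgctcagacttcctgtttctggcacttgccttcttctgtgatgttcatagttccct

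Both strands were searched without a mismatch for AGGTCA, the core bound by ROR factors, for the STAT5 motif TTCNNNGAA, for the STAT6 motif, which has 1 more free base in its middle, for the NF-kB motif GGANTTTCC and for the GATA motif, here as AGATAA. RefSeq sequences running from 250 bases before to 50 bases after the start were at hand for 8 of the 10 members (not *Klrg1* and *Icos*). *Il9r* held AGATAA once on its own strand at position -223 from the start and once on the opposite strand, as TTATCT, at -30. *Il7r* held the STAT5 motif as TTCAGGGAA at -142. No other match to the forms searched was found in the 8 windows. Other forms of these motifs, such as NF-kB sites that differ from GGANTTTCC, were not searched. Of all 32851 RefSeq windows of this length, 11.2% held the GATA motif, 16.3% the ROR core, 8.30% the STAT5 motif, 6.95% the STAT6 motif and 1.25% the NF-kB motif. A match describes letters in a window and is no measurement of binding.

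With IL-33, 8 of the 10 members were called higher and none was called lower. A gene was called where edgeR's quasi-likelihood test gave a Benjamini-Hochberg adjusted p under 0.05 over all genes tested and the log2 fold change was 1 or more in either direction. The exceptions were *Rora*, which was tested and not called, and *Ptgdr2*, whose mean of 0.322 FPKM over the 9 mice lay under the 0.5 required for the test. Over all 16831 genes tested, 10.8% were called higher and 6.24% lower. For the same 8 members, FPKM in all 3 IL-33 mice was above that in all 3 PBS mice, which held for 31.7% of genes tested. *Il2ra* and *Il9r* had mean PBS levels under 0.5 FPKM and so passed the filter through the treated groups. A fit with no filter tested all 10 members and called the same number higher. The median log2 fold change of the 9 tested members was 3.13, against -0.01 over all genes tested. With 3 mice against 3, the smallest two-sided p an exact permutation test allows is 0.1, the value reached by each of the 8.

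**Figure D1:**
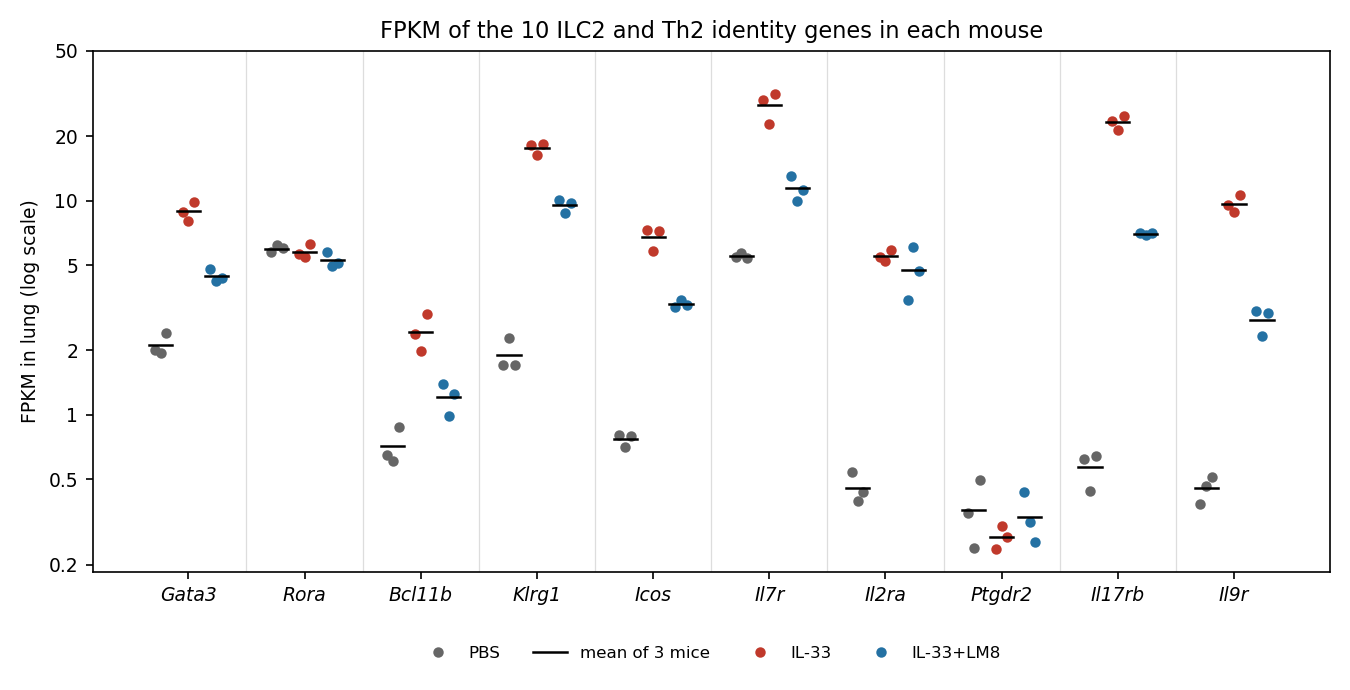
FPKM (log scale) of each of the 10 members in each of the 9 mice, with points for mice and a black line for the mean of 3. In 8 members all IL-33 mice lie above all PBS mice, and *Ptgdr2* stays under 0.5 FPKM in every mouse. *Rora* varies little, with all IL-33+LM8 mice slightly under all PBS mice.

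Of the 3 transcription factors, *Gata3* and *Bcl11b* rose with IL-33 and *Rora* did not pass the test. *Gata3* (ENSMUSG00000015619) encodes the zinc finger factor on which ILC2 and Th2 development depend. It stood at 2.01, 1.93 and 2.42 FPKM in the 3 PBS mice, at 8.81, 8.02 and 9.89 FPKM in IL-33 mice and at 4.78, 4.21 and 4.33 FPKM in IL-33+LM8 mice. The 3 groups did not overlap, with IL-33+LM8 mice between the others. Its mean was 4.20-fold ± 0.68 (SD from the group SDs, n = 3) higher in IL-33 than in PBS mice, a log2 fold change of 2.07 (SE 0.12, adjusted p 1.2e-05). *Gata3* overlaps 3 genes, of which *9230102O04Rik*, on the same strand, averaged 0.319 FPKM over the 9 mice and the others less.

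*Bcl11b* (ENSMUSG00000048251) encodes a zinc finger factor needed for T cell commitment and for keeping ILC2 identity. Its levels were low, at 0.646, 0.608 and 0.882 FPKM in PBS mice, 2.39, 1.99 and 2.96 FPKM in IL-33 mice and 1.39, 0.991 and 1.26 FPKM in IL-33+LM8 mice. All 3 groups were apart, and behind these values were 320 to 1350 reads per mouse. Its log2 fold change with IL-33 was 1.77 (SE 0.20, adjusted p 0.00025), the smallest of the called members.

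*Rora* (ENSMUSG00000032238) encodes the nuclear receptor RORα, which ILC2 development requires and which is also part of the circadian clock. It was the most abundant member per length in PBS mice, at 5.75, 6.19 and 5.97 FPKM. Values were 5.60, 5.43 and 6.26 FPKM in IL-33 mice and 5.73, 4.96 and 5.11 FPKM in IL-33+LM8 mice, so the IL-33 mice overlapped both other groups. The log2 fold change with IL-33 was -0.05 (SE 0.07, 95% confidence interval -0.21 to 0.10, adjusted p 0.53), which leaves room for a fall or rise of that size. In the same lungs 10 genes of the clock loop that ROR and REV-ERB factors share were tested. With IL-33, 5 of the 10 were called, 3 higher and 2 lower. *Dbp* (2.79) and *Nr1d1* (1.93), which encode a clock output factor and REV-ERBα, had the largest positive log2 fold changes. *Arntl* (-1.61) and *Cry2* (-1.10), a core activator and a repressor of the clock, were the called falls. *Clock* (-0.89), *Per2* (-0.85), *Cry1* (-0.67) and *Per1* (-0.29) also fell past the adjusted p with IL-33, under the minimum fold. When LM8 was added none of the 10 reached the minimum fold. *Cry2* (log2 fold change 0.77, adjusted p 0.00098), *Per2* (0.40, adjusted p 0.028) and *Clock* (0.28, adjusted p 0.033) passed the adjusted p. IL-33+LM8 mice spread widely in *Nr1d1* (27.0 ± 16.2 FPKM) and *Dbp* (7.98 ± 4.90 FPKM, SD, n = 3).

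The surface receptors *Klrg1* and *Icos* both rose with IL-33, to similar folds. *Klrg1* (ENSMUSG00000030114) encodes an inhibitory lectin-like receptor for cadherins, carried by effector lymphocytes and inflammatory ILC2s. It stood at 1.71, 2.28 and 1.71 FPKM in PBS mice, 18.1, 16.3 and 18.4 FPKM in IL-33 mice and 10.0, 8.78 and 9.72 FPKM in IL-33+LM8 mice. The groups lay apart, and the log2 fold change with IL-33 was 3.21 (SE 0.15, adjusted p 4.2e-06). *Icos* (ENSMUSG00000026009) encodes a costimulatory receptor of activated T cells and ILC2s. Its levels were 0.803, 0.708 and 0.793 FPKM in PBS mice, 7.25, 5.80 and 7.23 FPKM in IL-33 mice and 3.18, 3.43 and 3.25 FPKM in IL-33+LM8 mice. Again no mouse of one group reached the range of another, and the log2 fold change with IL-33 was 3.13 (SE 0.13, adjusted p 3.1e-06). Of their ligands, *Cdh1* (E-cadherin) and *Cdh2* (N-cadherin), which KLRG1 binds, had log2 fold changes of -0.13 and -0.65 and *Icosl*, the ICOS ligand, of 0.79, none reaching the minimum fold.

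The receptors for IL-7 and IL-2 also rose. *Il7r* (ENSMUSG00000003882) encodes the α chain of the IL-7 receptor, which also pairs with the TSLP receptor chain. It was the most abundant member per length in IL-33 mice, at 29.6, 22.8 and 31.4 FPKM, against 5.44, 5.69 and 5.38 FPKM in PBS mice and 13.1, 9.97 and 11.2 FPKM in IL-33+LM8 mice. The 3 groups were apart, and the log2 fold change with IL-33 was 2.34 (SE 0.12, adjusted p 6.2e-06). *Il7r* is the member with the STAT5 motif shown above.

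*Il2ra* (ENSMUSG00000026770) encodes CD25, the chain that gives the IL-2 receptor its high affinity. PBS mice stood at 0.542, 0.396 and 0.434 FPKM and IL-33 mice at 5.47, 5.20 and 5.89 FPKM, a log2 fold change of 3.58 (SE 0.15, adjusted p 2.7e-06). IL-33+LM8 mice ranged widely, at 3.45, 6.06 and 4.71 FPKM, from below every IL-33 mouse to above every one of them. The coefficient of variation in that group was 27.6%, against 6.31% in IL-33 mice. *Il2ra* overlaps *Gm37881* on the same strand, which averaged 0.332 FPKM over the 9 mice.

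Receptors for IL-25 and IL-9 had the largest rises of the 10 genes. *Il17rb* (ENSMUSG00000015966) encodes the chain that binds IL-25. Its levels were 0.625, 0.441 and 0.644 FPKM in PBS mice, 23.5, 21.4 and 24.8 FPKM in IL-33 mice and 7.03, 6.90 and 7.03 FPKM in IL-33+LM8 mice, with no overlap between groups. Its mean was 40.8-fold ± 8.6 (SD, n = 3) higher in IL-33 than in PBS mice, a log2 fold change of 5.32 (SE 0.16, adjusted p 1.1e-06). *Il17rb* overlaps *Actr8* on the opposite strand, and whether reads were counted by strand is not given in the sources used here. *Actr8* stood at 5.20 ± 0.22 FPKM in PBS mice, 6.14 ± 0.28 with IL-33 and 5.28 ± 0.31 with IL-33+LM8 (SD, n = 3).

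*Il9r* (ENSMUSG00000020279) encodes the IL-9 receptor, through which ILC2s respond to IL-9. It stood at 0.383, 0.467 and 0.513 FPKM in PBS mice, 9.57, 8.83 and 10.6 FPKM in IL-33 mice and 3.04, 2.33 and 2.98 FPKM in IL-33+LM8 mice. Groups were again apart, and the log2 fold change with IL-33 was 4.39 (SE 0.13, adjusted p 1.1e-06). This is the member with a pair of AGATAA matches shown above. *Il9* itself had 0 counts in all PBS and all IL-33 mice, which allows up to 3 counts per library, and 4 counts over the IL-33+LM8 mice.

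*Ptgdr2* (ENSMUSG00000034117) encodes CRTH2, the receptor for prostaglandin D2 that marks human ILC2s and Th2 cells. It was the lowest member in all groups, at 0.347, 0.238 and 0.497 FPKM in PBS mice, 0.236, 0.302 and 0.269 FPKM in IL-33 mice and 0.434, 0.315 and 0.255 FPKM in IL-33+LM8 mice. All groups overlapped, and each library held 41 to 101 reads. In the fit with no filter its log2 fold change with IL-33 was -0.41 (SE 0.38, 95% confidence interval -1.30 to 0.48, adjusted p 0.49), so a rise of the size seen in the other receptors was outside the interval. *Ptgdr2* overlaps *Ccdc86* on the opposite strand, which averaged 2.05 FPKM. The other receptor for prostaglandin D2, *Ptgdr*, had 0 counts in all 3 PBS mice, 169 to 195 counts in IL-33 mice and 43 to 122 in IL-33+LM8 mice, and its mean over the 9 mice also lay under the filter. *Hpgds*, which encodes the prostaglandin D2 synthase of hematopoietic cells, was called higher with IL-33 (log2 fold change 1.48, SE 0.15, adjusted p 0.00017).

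**Figure D2:**
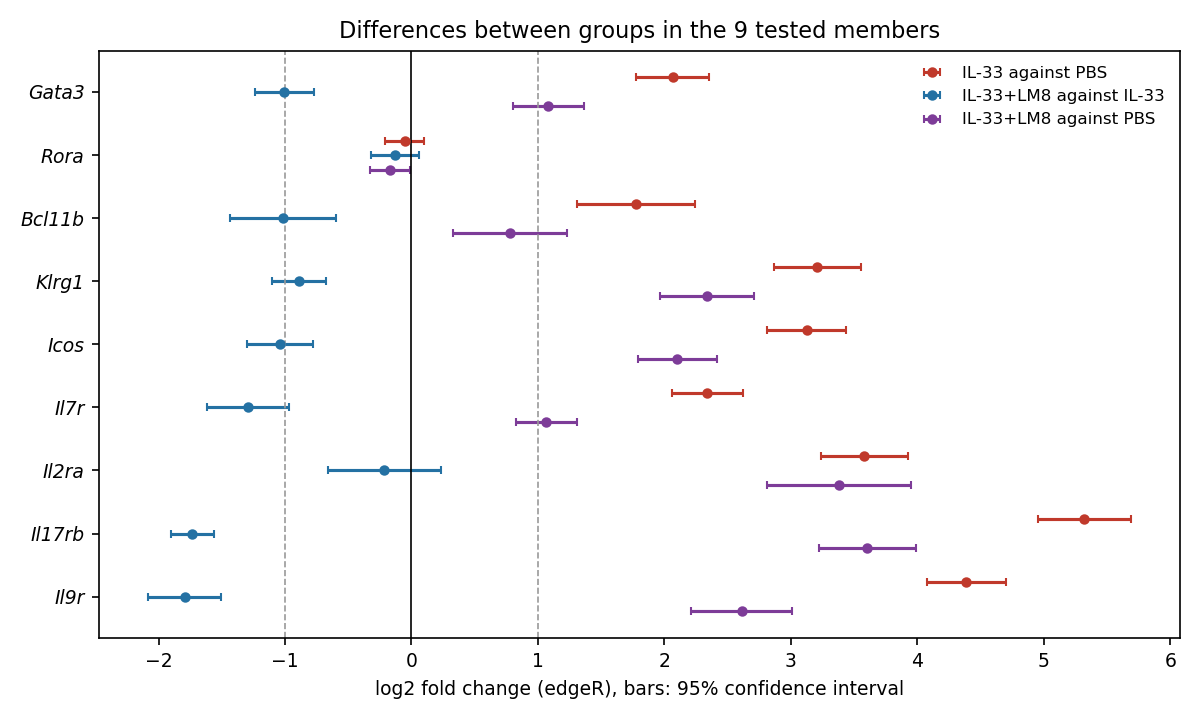
Log2 fold changes from edgeR with 95% confidence intervals for the 9 tested members in the 3 comparisons; dashed lines mark the minimum of 1 for a call. *Il17rb* has the largest value with IL-33 (5.32), *Il9r* the lowest among the blue points, which set IL-33+LM8 over IL-33 (-1.79), and the 3 intervals of *Rora* lie near 0.

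IL-33+LM8 mice were set against mice given IL-33 alone to ask how the members stood when MyD88 was targeted, here called the LM8 comparison. Of the 10 members 6 were called lower and none higher, where 3.93% of all genes tested were called lower and 1.46% higher. FPKM was lower in all 3 IL-33+LM8 mice than in all 3 IL-33 mice for 7 members, as for 22.0% of genes tested. The cytokine receptors *Il9r* and *Il17rb* fell furthest, with log2 fold changes of -1.79 (SE 0.12, adjusted p 0.00014) and -1.73 (SE 0.07, adjusted p 3.3e-05), and *Il7r* fell by 1.29 on the log2 scale (SE 0.14, adjusted p 0.00066). *Icos* (-1.04, SE 0.11), *Bcl11b* (-1.01, SE 0.18) and *Gata3* (-1.004, SE 0.10) lay just past the minimum fold change. *Klrg1* lay just inside it, at -0.89 (SE 0.09, adjusted p 5e-04), and was not called for that reason alone. The number called lower thus depended on the minimum fold: it was 7 with no minimum, and 3 without IL-33 replicate 3, when *Gata3* (-0.91), *Bcl11b* (-0.84) and *Icos* (-0.98) missed it. *Icos* also missed it without IL-33 replicate 1 (-0.99), *Gata3* (-0.97) and *Bcl11b* (-0.89) without IL-33+LM8 replicate 2, and *Gata3* (-0.97) without IL-33+LM8 replicate 3.

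*Il2ra* and *Rora* were the tested members with no difference past the adjusted p in this comparison. The log2 fold change of *Il2ra* was -0.22 (SE 0.19, 95% confidence interval -0.66 to 0.23, adjusted p 0.46), an interval that does not reach the minimum fold. It was -0.03 without IL-33+LM8 replicate 1 (adjusted p 0.90) and -0.44 without replicate 2 (adjusted p 0.072). That of *Rora* was -0.13 (SE 0.08, 95% confidence interval -0.32 to 0.06, adjusted p 0.29), and -0.06 without IL-33 replicate 3. For *Ptgdr2* the fit with no filter gave 0.31 (SE 0.35, adjusted p 0.65). Median log2 fold change over the 9 tested members was -1.01, against -0.01 over all genes tested. This comparison shares its IL-33 mice with the one above, so that the values of both rest in part on the same libraries.

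Against PBS mice, IL-33+LM8 mice still had 7 members called higher and none lower, where 5.87% of genes tested were called higher and 1.46% lower. All 3 IL-33+LM8 mice lay above all PBS mice for 8 members, as for 23.4% of genes tested. The log2 fold changes were 3.60 for *Il17rb* (SE 0.16), 3.38 for *Il2ra* (SE 0.24), 2.61 for *Il9r* (SE 0.17), 2.34 for *Klrg1* (SE 0.16) and 2.10 for *Icos* (SE 0.13). *Gata3* (1.08, SE 0.12) and *Il7r* (1.07, SE 0.10) were called close to the minimum, and *Il7r* missed it without IL-33+LM8 replicate 1 (0.96). *Bcl11b*, at 0.78 (SE 0.19, adjusted p 0.022), missed it. *Rora* had a value of -0.17 (SE 0.07, adjusted p 0.1), with the highest IL-33+LM8 mouse, 5.73 FPKM, just under the lowest PBS mouse, 5.75 FPKM. This comparison shares its libraries with both others.

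The share of the rise over PBS that was present in IL-33+LM8 mice ran from 25.3% to 84.7% over the 8 risen members. It was computed from the 3 group means of FPKM, with a standard error propagated from them. The value was 25.3% (SE 2.9) for *Il9r*, 26.4% (SE 5.1) for *Il7r*, 28.3% (SE 1.3) for *Il17rb* and 28.8% (SE 8.9) for *Bcl11b*. *Gata3* had 34.2% (SE 4.0), *Icos* 42.0% (SE 3.6) and *Klrg1* 48.4% (SE 3.2). The share was 84.7% (SE 15.3) for *Il2ra*, and between 71.7% and 97.5% when any 1 mouse was left out. Differences between these shares were not tested. No share is given for *Rora* and *Ptgdr2*, which had no rise.

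**Figure D3:**
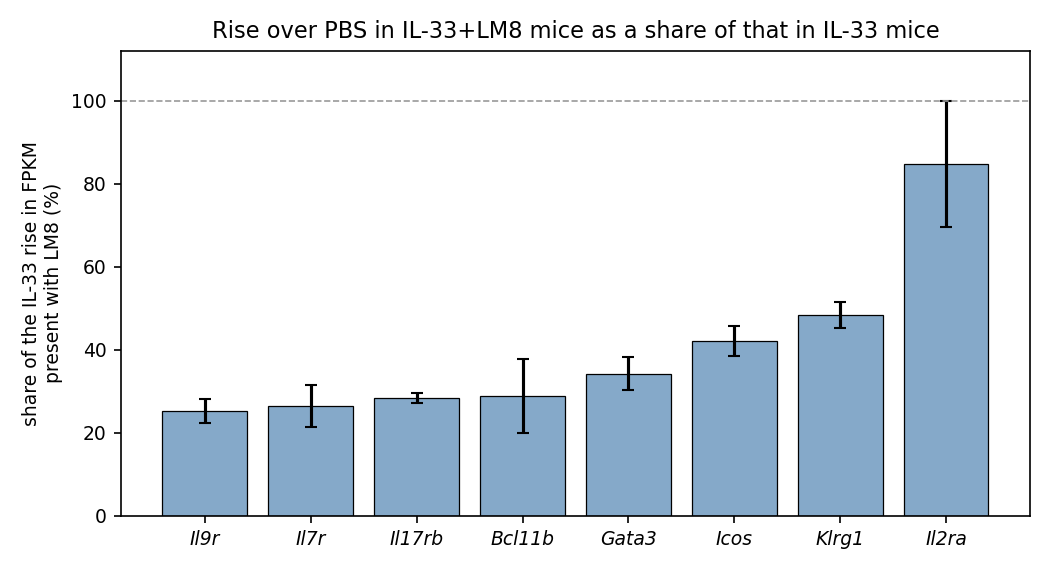
Rise in mean FPKM over PBS in IL-33+LM8 mice as a percentage of the rise in IL-33 mice, for the 8 members called higher with IL-33; error bars are standard errors propagated from the 3 group means. Shares run from 25.3% for *Il9r* to 84.7% for *Il2ra*, and the dashed line marks the level of IL-33 mice.

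These differences changed the order of the members by mean FPKM. In PBS mice *Rora* (5.97 ± 0.22) led, followed by *Il7r* (5.50 ± 0.16), *Gata3* (2.12 ± 0.26) and *Klrg1* (1.90 ± 0.33), and the remaining 6 lay between 0.361 and 0.768 FPKM (SD, n = 3). Mice overlapped between *Gata3* and *Klrg1* and between every pair of neighbours from *Icos* downward. In IL-33 mice the order was *Il7r* (27.9 ± 4.6), *Il17rb* (23.2 ± 1.7), *Klrg1* (17.6 ± 1.1), *Il9r* (9.67 ± 0.89), *Gata3* (8.91 ± 0.94), *Icos* (6.76 ± 0.83), *Rora* (5.76 ± 0.44), *Il2ra* (5.52 ± 0.35), *Bcl11b* (2.45 ± 0.49) and *Ptgdr2* (0.269 ± 0.033). *Il7r* and *Il17rb*, *Il9r* and *Gata3*, and the neighbours from *Icos* to *Il2ra* overlapped there. In IL-33+LM8 mice *Il7r* (11.4 ± 1.6) and *Klrg1* (9.51 ± 0.65) overlapped at the top, *Il17rb* (6.99 ± 0.08) followed, and *Rora* (5.27 ± 0.41), *Il2ra* (4.74 ± 1.31) and *Gata3* (4.44 ± 0.30) overlapped in turn. *Icos* (3.29 ± 0.13), *Il9r* (2.78 ± 0.40), *Bcl11b* (1.21 ± 0.20) and *Ptgdr2* (0.335 ± 0.091) were each apart from the next.

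Ratios of FPKM within a mouse showed the same spread among members. Per unit of *Gata3*, the median level of *Il17rb* was 0.266 in PBS mice, 2.67 with IL-33 and 1.63 with IL-33+LM8, and that of *Il9r* 0.212, 1.09 and 0.637. *Icos* stood at 0.366, 0.731 and 0.752 and *Klrg1* at 0.850, 2.04 and 2.10. For *Icos* the ratios of IL-33 mice (0.724 to 0.822) and IL-33+LM8 mice (0.665 to 0.813) overlapped. Those of *Klrg1* were close but apart, at 1.86 to 2.05 in IL-33 mice and 2.08 to 2.25 in IL-33+LM8 mice. *Il2ra* stood at 0.205, 0.620 and 1.09, and *Rora* at 2.86, 0.636 and 1.18. For *Rora*, *Bcl11b* and *Ptgdr2* the ratio was lower in all 3 IL-33 mice than in all 3 PBS mice.

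Genes of partner subunits and ligands of the members had smaller median log2 fold changes, 0.06 with IL-33 and -0.24 in the LM8 comparison. Of 17 listed 13 were tested and 4 were called higher with IL-33, none lower, and none was called in the LM8 comparison. The partner chains *Il2rg* (log2 fold change 1.19, SE 0.06), shared by the receptors for IL-2, IL-7 and IL-9, and *Il2rb* (1.07, SE 0.12) were among the 4. *Crlf2*, the TSLP receptor chain that pairs with IL-7Rα, was called too (1.95, SE 0.50), with PBS mice between 2.30 and 11.2 FPKM and IL-33 mice between 21.7 and 25.02 FPKM. *Il17ra*, the partner of *Il17rb*, had a value of 0.97 (SE 0.08), under the minimum fold. *Il7* (0.06, SE 0.17), *Tslp* (-0.33, SE 0.35) and *Il15* (-0.32, SE 0.16) were not called, and *Il2* had at most 9 counts in any library. In the LM8 comparison *Crlf2* (-0.89), *Hpgds* (-0.75), *Icosl* (-0.52) and *Il2rg* (-0.35) passed the adjusted p, under the minimum fold. *Ptgds* had the lowest value there (-1.97, SE 0.75, adjusted p 0.096). It was called lower in IL-33+LM8 against PBS mice (-2.41, adjusted p 0.025), with PBS mice between 0.744 and 4.52 FPKM.

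Other genes known in ILC2s and Th2 cells rose in part. Of 26 tested ILC2 genes 14 were called higher and 1 lower with IL-33, with a median log2 fold change of 1.15. *Il13* (7.16, SE 0.82), *Arg1* (6.76, SE 0.35), *Il5* (5.58, SE 0.59) and *Il1rl1* (3.89, SE 0.11), which encode the type 2 cytokines, arginase 1 and ST2, had the largest. In PBS libraries *Il13* had 0 to 4 counts and *Il5* 4 to 18. Both passed the filter through the treated groups, and the size of their log2 fold changes rests on few PBS reads. *Zbtb16*, which encodes the factor PLZF of ILC precursors, was the gene called lower (-1.51, SE 0.13). Its mean of 40.5 FPKM in PBS mice lay above that of *Gata3* (2.12 FPKM), and which cells carried it was not tested. In the LM8 comparison 3 of the 26 were called lower, *Arg1* (-2.35, SE 0.20), *Il1rl1* (-1.38, SE 0.11) and *Cxcr6* (-1.12, SE 0.12), and none higher. Under the minimum fold but past the adjusted p were falls of *Gfi1* (-0.98), *Nmur1* (-0.88), *Tox* (-0.87), *Il5* (-0.87), *Vipr2* (-0.84) and *Thy1* (-0.80). So were smaller falls of *Id2*, *Pparg*, *Cysltr1* and *Tnfrsf25*, and rises of *Zbtb16* (0.90), *S1pr1* (0.69), *Calcrl* (0.55) and *Ly6a* (0.52). With IL-33, *S1pr1* (-0.83), *Calcrl* (-0.75) and *Il18r1* (-0.66) had fallen past the adjusted p, under the minimum fold. *Tnfrsf25* (0.66), *Nfil3* (0.63) and *Ets1* (0.26) had risen in that way. In IL-33+LM8 against PBS mice *S1pr1* (-0.12) and *Calcrl* (-0.19) did not pass the adjusted p. *Il13* did not pass the adjusted p in the LM8 comparison (-0.39, SE 0.43, adjusted p 0.56). Several of these ILC2 genes, *Arg1* among them, are also known in macrophages and other cells. Of 10 further Th2 genes 4 were called higher with IL-33, the chemokine receptors *Ccr8* (5.27, SE 0.42) and *Ccr4* (3.60, SE 0.23) and the factors *Irf4* (2.94, SE 0.12) and *Batf* (1.19, SE 0.10), and 1 was called lower in the LM8 comparison, *Ccr8* (-1.18, SE 0.13). Past the adjusted p there but under the minimum fold were *Il4* (-0.97), *Irf4* (-0.74) and *Il4ra* (0.20). *Il4*, the cytokine that defines Th2 cells, stood at 0.701 ± 0.181, 0.991 ± 0.201 and 0.502 ± 0.041 FPKM in PBS, IL-33 and IL-33+LM8 mice (SD, n = 3) and was not called with IL-33. Of regulators and cytokines of type 1 and type 3 lymphocytes 5 of 10 were tested, of which *Stat4* (1.89, SE 0.17) and *Ccr6* (1.83, SE 0.36) were called higher with IL-33, and *Eomes* and *Ccr6* lower in the LM8 comparison.

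**Figure D4:**
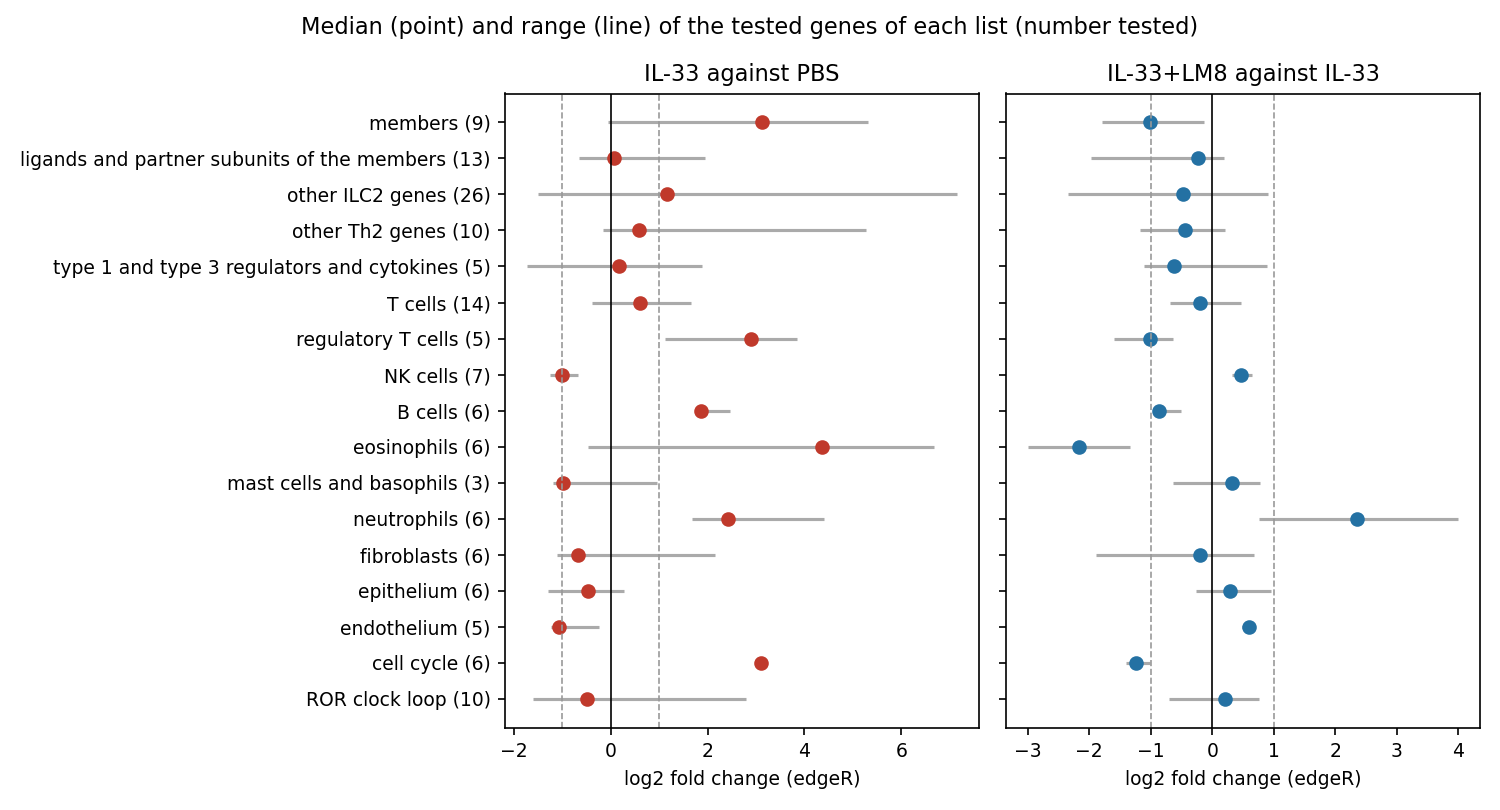
Median (point) and range (line) of log2 fold changes from edgeR over the tested genes of each list, with the number tested in brackets, in IL-33 against PBS mice (left) and the LM8 comparison (right); dashed lines mark the minimum of 1. The members have medians of 3.13 and -1.01, T cell genes 0.60 and -0.20, regulatory T cell genes 2.89 and -1.01, and cell cycle genes 3.10 and -1.24.

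Marker lists of other cells that carry some of the members were measured in the same lungs. Of 14 tested T cell genes 3 were called higher with IL-33, *Zap70* (1.65), *Trbc1* (1.28) and *Trbc2* (1.02, log2 fold changes). Past the adjusted p but under the minimum fold were *Cd3g* (0.99), *Cd5* (0.90), *Trac* (0.65), *Cd4* (0.64), *Lck* (0.55) and *Cd3e* (0.39). *Cd8a* (-0.09) and *Cd8b1* (-0.38) had negative values with IL-33 that did not pass the test. No T cell gene was called in the LM8 comparison. *Zap70* (-0.69), *Trbc1* (-0.54) and *Cd3g* (-0.43) passed the adjusted p in the LM8 comparison but not the minimum fold. The summed level of the 15 listed T cell genes was 57.4 to 61.5 FPKM in PBS mice, 96.4 to 115 in IL-33 mice and 82.8 to 95.3 in IL-33+LM8 mice. As a percentage of that sum, *Gata3* stood at 3.14 to 4.18 in PBS mice, 8.11 to 8.59 in IL-33 mice and 5.01 to 5.09 in IL-33+LM8 mice, *Il17rb* at 0.717 to 1.11, 21.6 to 22.2 and 7.38 to 8.34, and *Rora* at 10.0 to 10.3, 5.15 to 5.63 and 5.97 to 6.01. All 5 tested regulatory T cell genes were called higher with IL-33, among them *Ctla4* (3.86), *Tigit* (3.11) and *Foxp3* (2.89). These 3 were called lower in the LM8 comparison (-1.60, -1.01 and -1.35). *Ikzf2* (-0.97) and *Tnfrsf4* (-0.63) fell there past the adjusted p, under the minimum fold. The regulatory T cell list summed to 3.27 to 4.23 FPKM in PBS mice, 22.5 to 24.0 in IL-33 mice and 9.58 to 11.4 in IL-33+LM8 mice. All 6 cell cycle genes were called higher with IL-33 (median 3.10) and all 6 lower in the LM8 comparison (median -1.24), with sums of 8.88 to 13.8, 85.8 to 102 and 34.3 to 44.1 FPKM. The part of these cells and of proliferation in the members' values was not tested.

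Marker genes of other cell types also changed in the same lungs. Of 7 NK cell genes 4 were called lower with IL-33 (median log2 fold change -1.01) and none in the LM8 comparison (median 0.46), and their sum was 36.7 to 55.8 FPKM in PBS mice, 20.5 to 21.1 in IL-33 mice and 23.1 to 38.0 in IL-33+LM8 mice. With IL-33, *Prf1* (-0.97), *Klre1* (-0.90) and *Klrd1* (-0.68) also fell past the adjusted p, under the minimum fold. *Gzma* (0.64, adjusted p 0.024) passed the adjusted p in the LM8 comparison, under the minimum fold. The 6 B cell genes were all called higher with IL-33 and none was called in the LM8 comparison, with sums of 35.7 to 45.3, 126 to 165 and 81.6 to 94.1 FPKM. All 6 had negative values in the LM8 comparison (-0.92 to -0.50, adjusted p 0.0015 to 0.0068) and missed only the minimum fold. Of 6 tested eosinophil genes 5 were called higher with IL-33 and 6 lower in the LM8 comparison, and the list summed to 22.0 to 26.2, 54.4 to 58.5 and 13.8 to 14.7 FPKM. *Ear1* made up most of the sum in PBS mice, with means of 19.4, 14.0 and 5.52 FPKM, and was called lower in IL-33+LM8 against PBS mice (log2 fold change -1.80), where *Prg2* (4.39), *Ear6* (4.24) and *Ccr3* (3.63) were called higher. *Prg2*, the major basic protein of eosinophils, had log2 fold changes of 6.67 (SE 0.23) and -2.31 (SE 0.13). PBS libraries held 8 to 16 counts of *Prg2*, 0 to 15 of *Ear6* and 0 to 20 of *Ccr3*. The size of their changes over PBS thus rests on few reads. Neutrophil genes were called higher in both comparisons, 6 of 6 with IL-33 and 4 of 6 in the LM8 comparison, and summed to 25.3 to 32.3, 181 to 205 and 838 to 976 FPKM. Of 8 mast cell and basophil genes 3 were tested and 1, *Gata2*, was called lower with IL-33, with sums of 41.7 to 47.4, 19.4 to 23.1 and 33.6 to 35.0 FPKM. *Gata2* alone had means of 40.6, 17.8 and 30.6 FPKM, so the sums follow this gene. *Cpa3*, a mast cell protease, had means of 0.999, 1.93 and 1.25 FPKM. Its log2 fold change with IL-33 was 0.95 (adjusted p 0.014), under the minimum fold, as was that of *Cma1* (-0.99, adjusted p 0.03). With IL-33, 2 of 6 epithelial genes and 3 of 5 endothelial genes were called lower, and of 6 fibroblast genes 2 were called higher and 1 lower. Past the adjusted p with IL-33, under the minimum fold, were *Ager* (-0.93), *Epcam* (0.27) and *Pecam1* (-0.59). So were *Tcf21* (-0.77), *Dcn* (-0.71) and *Lum* (-0.64) of fibroblasts. In the LM8 comparison none of the epithelial and endothelial genes was called and 2 fibroblast genes, *Col1a1* and *Col1a2*, were called lower. The 5 endothelial genes all had positive values there (0.49 to 0.68, adjusted p 0.00052 to 0.004), under the minimum fold. Also past the adjusted p alone were *Scgb1a1* (0.96), *Sftpc* (0.88), *Ager* (0.57) and *Krt8* (-0.25) of epithelium, and *Tcf21* (0.67) and *Pdgfra* (0.60) of fibroblasts. Summed FPKM was 31875 to 34654, 13705 to 14902 and 26300.3 to 28540 for epithelium, 621 to 701, 379 to 415 and 586 to 605 for endothelium, and 182 to 200, 287 to 333 and 166 to 174 for fibroblasts. No gene of these lists was at 0 counts in all 9 mice, and their part in the members' values was not tested.

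Genes whose profile over the 9 mice lay nearest to each called member were found by the root mean square difference of log2(FPKM + 1) after centring each gene. For *Gata3* they were *Espl1* (0.08), *Hdc* (0.09) and *Acap1* (0.09), and for *Bcl11b* they were *Oasl1* (0.09), *Mfsd12* (0.10) and *Bard1* (0.11). *Icos* lay nearest to *Ptpn22* (0.07), *Kif11* (0.09) and *Cd84* (0.10), and *Klrg1* to *Cotl1* (0.11), *Hk3* (0.12) and *Gpr65* (0.13). The neighbours of *Il7r* were *Il4i1* (0.13), *Rasal3* (0.15) and *Psap* (0.16), and those of *Il9r* were *Dcstamp* (0.13), *Ctla4* (0.13) and *Cyp4f18* (0.15). For *Il17rb* they were *Gm8113* (0.17), *Prg2* (0.20) and *Pdcd1lg2* (0.26). The distance is not divided by the size of a member's own changes, whose root mean square was 1.62 for *Il17rb* and 0.43 for *Bcl11b*, so it does not rank likeness between members. For *Il2ra* the nearest were *Tnfrsf8* (0.10), which stood at 0.149, 3.78 and 3.15 mean FPKM in PBS, IL-33 and IL-33+LM8 mice, *Sdf2l1* (0.12) and *Cd209e* (0.17). No member was among the 3 nearest genes of another. All of these genes were measured in the same 9 libraries, and the distances describe likeness only.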

How the data were processed

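RNA of whole lung from 9 mice was sequenced in paired ends, and the authors deposited 1 table with read counts and FPKM per gene and mouse, the latter normalized for gene length and library size. The submitters' processing notes name HISAT2 2.0, StringTie 1.3.0, Bowtie 0.12.2 and mm10, with no role given. Gene coordinates in the table differ from those of GRCm38 for all but 578 of the 32643 genes shared with GENCODE M21, so none of them is printed. Groups were taken from the treatment labels, and each library was taken as 1 mouse, as the design text says.

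The deposited counts were tested with edgeR 4.0.16 (quasi-likelihood, TMM, R 4.3.3), with the 6 mice of a comparison in the fit and genes kept that averaged 0.5 FPKM or more in the 9 mice and had reads in the 6 (16831, 16831 and 16829 genes). The standard error is the log2 fold change divided by the square root of F. Simulated data with 200 changed genes gave 198, 198 and 200 recovered in the 3 comparisons, and 4, 15 and 12 unchanged genes were called. The changed genes were drawn among those with more reads, and all genes had the same spread. The simulation therefore does not cover genes with few reads or a wide spread between mice. Single genes were also tested by exact two-sided permutation on log2(FPKM + 1). Total counts per mouse were 53877663 to 90607218, and a count of 0 was read as up to 3 counts, which covers counting error only. Alternatives used DESeq2 1.42.0, limma 3.58.1, other filters and scalings, the replicate number as a block, and fits without 1 mouse. Samples with the same number deviated together in IL-33+LM8 and PBS mice (correlations of 0.31, 0.32 and 0.67), and not in the other comparisons. Samples with different numbers also reached such values. IL-33 replicate 1 and PBS replicate 3 correlated at 0.65, and IL-33+LM8 replicate 3 and IL-33 replicate 1 at 0.67. PBS replicate 3, IL-33 replicate 1 and IL-33+LM8 replicate 3 each had the most counts of their group. The labels do not say what the numbers share.

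The members and lists were chosen with earlier results of these data known. From the lists, up to 4 genes called with the largest absolute change with IL-33 and up to 2 called in the LM8 comparison (IL-33+LM8 over IL-33) could be named, and values of other list genes were chosen for their role after being seen. For each called member the 3 genes of nearest profile were named. Promoter sequences are from RefSeq (GRCm38.p6). A result for 1 gene of the lists is not reported here.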

Additional observations from a re-analysis of the deposited data

How the results depend on the processing

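The 8 calls with IL-33 held under every alternative run, which left out the filter, required a mean FPKM of at least 1, used median-of-ratios scaling, DESeq2, limma with a pseudocount of 1 or 0.1, all 9 mice, a replicate block or no minimum fold, or left out 1 mouse. In the LM8 comparison 6 members were called lower; limma with a pseudocount of 1 called 3, and leaving out 1 mouse gave 3 to 6, with 3 only without IL-33 replicate 3. *Gata3*, at -1.004, was no longer called under 9 alternatives, *Bcl11b* under 6 and *Icos* under 3, since their values lie at the minimum fold; *Gata3* was then between -0.862 and -0.999. Against PBS mice, limma with a pseudocount of 1 gave 0.80 for *Gata3* and 0.93 for *Il7r*, and *Il7r* was 0.96 without IL-33+LM8 replicate 1. Of 378 values of single members under alternatives, 356 kept direction and call, 21 lost the call, and 1 changed sign: *Rora* with IL-33 was 0.0022 without IL-33 replicate 2, with values down to -0.11 when another mouse was left out. Over all genes, limma with a pseudocount of 1 called 1281 higher and 460 lower with IL-33, 91 and 348 in the LM8 comparison and 508 and 80 against PBS mice. With no minimum fold the numbers were 4616 and 4577, 2120 and 2339, and 2741 and 2256. A mean FPKM of at least 1 left 164 genes lower in IL-33+LM8 against PBS mice, of 14674 tested.

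With the replicate block, 8 members were called higher with IL-33, 6 lower in the LM8 comparison and 7 higher against PBS mice, so the block changed no call of a member. Same-numbered samples of IL-33 and PBS mice correlated between -0.42 and 0.28, and those of IL-33+LM8 and IL-33 mice between -0.40 and 0.22. Depth limits *Ptgdr2*, *Il9* and *Il2*, with at most 101 reads per library.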
